A study of Mus musculus with 6 samples.

Results

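The histone cluster genes encode the core and linker histones made during DNA replication, and their RNA was described here in mouse Th17 cells, the helper T cells that make IL-17. Members were every symbol of the deposited table that starts with Hist1h, Hist2h, Hist3h or Hist4h, with shared rows split at the commas. This rule found 66 symbols in 67 of the 23203 rows of the table, since Hist1h2ao and Hist2h2aa2 each stand in 2 rows and 1 row names both Hist1h1e and Hist1h2be. The symbols include Hist3h2bb-ps, a pseudogene without a coding sequence in its model, which was counted with H2B. FPKM count fragments per kilobase of transcript on a scale set for each library, so they are levels per length. How the authors set that scale is not given in the sources used here. Averaged over the 6 libraries, 56 of the rows reached 1 FPKM or more, and these were tested among 10228 such rows. No library's value chose a member, but the family was taken up with earlier results of the same contrast known, so its counts are given as a description.

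Both groups were naive mouse CD4 T cells cultured for 48 h under stimulation of the T cell receptor by plate-bound anti-CD3e (10 µg/ml) and of its partner CD28 by an antibody (1 µg/ml). The Th17 cytokines were TGFb1 at 2.5 ng/ml, IL-23 at 10 ng/ml and IL-6 at 20 ng/ml. One group of 3 libraries received DMSO as vehicle, and the other, also of 3, received 250 µM 2DG (2-deoxyglucose), a glucose analogue used to inhibit glycolysis. The libraries carry the numbers 17, 42 and 43 in both groups, called replicates 1, 2 and 3 here. The labels name no animal or culture for a library. The spread behind each p-value is therefore that between libraries and may be technical. No transgene or deletion is named. T cell markers were present, with Il17a at 235 to 267 FPKM in vehicle and 574 to 706 in 2DG (log2 fold change 1.36, adjusted p = 0.00315 by limma with Benjamini-Hochberg adjustment). Cd2, a T cell adhesion receptor, had a mean of 499 ± 36.6 FPKM in vehicle and 216 ± 23.8 in 2DG (SD, n = 3; limma adjusted p = 0.00402). Summed B cell, myeloid and red cell markers stayed at or below 3.92 FPKM in every library, and CD8 markers at 2.68 to 5.51. NK cell markers summed to 16.03 to 37.7 FPKM in vehicle and 14.5 to 25.3 in 2DG, with Klrb1c listed at 0. The 2 tested, named after their values were seen, had log2 fold changes of opposite sign. Klrd1 had means of 26.8 FPKM in vehicle and 13.4 in 2DG, with overlap (-0.89 ± 0.40, limma adjusted p = 0.299). Nkg7 had means of 2.05 and 5.97 FPKM, with 2DG above vehicle (1.22 ± 0.28, limma adjusted p = 0.0699). No read counts were used, so depth is unknown.

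Histone proteins package DNA into nucleosomes, each with a core of H2A, H2B, H3 and H4, while the linker histone H1 binds where DNA enters and leaves. Cells need new histones when they copy their DNA, so cluster genes are transcribed mainly in S phase. Their mRNAs are unusual in ending after a conserved stem-loop and not in a poly(A) tail. The stem-loop is bound by SLBP, and the U7 snRNP, which holds Lsm10 and Lsm11, guides the cut after it. NPAT and CASP8AP2 act in the nuclear body where these genes are transcribed. T cells enter rapid division after activation.

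The stem-loop was searched for in the GENCODE M21 transcripts (on GRCm38, which mm10 is another name of), because histone mRNAs end just after it. The search took 16 bases on the sense strand: a stem of 6 complementary bases that opens with GG and closes with CC, a loop of 4, and the conserved T and A bases of the consensus. All 66 symbols had a gene model, and 44 of these held the stem-loop, against 17 other genes of the 55341 in the annotation. Those 17 include histone genes: Hist1h2ap and Hist2h2aa1, which the deposited table does not name, and H2afx and H2bfm. Trim17 and Gm20634, also among the 17, overlap Hist3h2a and Hist2h3c1 on the same strand. Of the 22 member models without the stem-loop, 16 have no annotated 3′ UTR. The loop began 21 to 58 bases after the stop codon, with a median of 31. The following 30-base sites, 5′ to 3′ with the stem-loop in capitals, show how it varies between histone types.
Hist1h1c: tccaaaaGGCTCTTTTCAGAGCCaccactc
Hist3h2a: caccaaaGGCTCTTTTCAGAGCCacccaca
Hist2h2ac: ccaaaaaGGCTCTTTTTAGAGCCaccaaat
Hist1h2bm: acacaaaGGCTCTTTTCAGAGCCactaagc
Hist1h3c: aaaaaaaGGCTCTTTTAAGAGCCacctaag
Hist1h4d: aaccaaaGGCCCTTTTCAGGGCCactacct
Hist1h4f: tctcaaaGGCCCTTTTCAGGGCCacccact
Hist1h4b: tacaaaaGGTCCTTTTCAGGACCactcact
The commonest form, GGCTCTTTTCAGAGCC, stood in 24 genes of types H1, H2A, H2B and H3. None of the 12 H4 loops had it: 7 were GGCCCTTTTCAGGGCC, 2 were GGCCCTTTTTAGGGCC, 2 were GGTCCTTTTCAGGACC and 1 was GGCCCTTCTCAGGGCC. Thus H4 loops differed from the others in the paired bases of the stem. In 23 genes the model runs 100 bases or more past the loop, and 14 of these hold the poly(A) signal AATAAA there. Rows with a stem-loop in the model had a median log2 fold change of -0.19 (37 tested), and rows without had -0.18 (19 tested).

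The 250 bases before the start of 3 members are shown next, from RefSeq on GRCm38.p6, because they belong to the member of smallest p (Hist1h1a), that of highest level (Hist2h2bb) and the H4 gene of highest level (Hist1h4d). Capitals mark the TATA box TATAAA, the CCAAT box, the octamer ATTTGCAT, the H1 element AAACACA and the core of an H4 element, which is GGTCCG, on either strand.
Hist1h1a, chr13:23763418-23763667, plus strand: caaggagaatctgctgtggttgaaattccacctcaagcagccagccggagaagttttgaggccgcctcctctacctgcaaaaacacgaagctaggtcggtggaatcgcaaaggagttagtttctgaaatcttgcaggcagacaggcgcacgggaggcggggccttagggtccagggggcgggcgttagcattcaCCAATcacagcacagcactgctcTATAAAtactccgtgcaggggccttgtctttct
Hist2h2bb, chr3:96269450-96269699, plus strand: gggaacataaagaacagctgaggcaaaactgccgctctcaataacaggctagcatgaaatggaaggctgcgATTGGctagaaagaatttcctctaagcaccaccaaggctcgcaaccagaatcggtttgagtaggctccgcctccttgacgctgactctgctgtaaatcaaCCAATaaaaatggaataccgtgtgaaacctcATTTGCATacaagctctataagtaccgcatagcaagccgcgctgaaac
Hist1h4d, chr13:23581318-23581567, plus strand: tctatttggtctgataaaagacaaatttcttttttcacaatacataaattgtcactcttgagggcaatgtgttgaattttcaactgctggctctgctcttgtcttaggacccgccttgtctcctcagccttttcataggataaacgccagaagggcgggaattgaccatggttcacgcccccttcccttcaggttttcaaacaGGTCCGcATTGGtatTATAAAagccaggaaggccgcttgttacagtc
RefSeq gave 61 promoters of 250 bases before to 50 after the start for 60 of the members. TATAAA stood in 55.7% of them, against 13.6% of all 32851 promoters of that length. CCAAT stood in every H1, H2A, H2B and H3 promoter and in 3 of 12 of H4, against 37.4% of all promoters. The octamer stood in 7 of 16 H2A and 7 of 17 H2B promoters and in none of the other types, against 1.74%. AAACACA stood in 5 of 6 H1 promoters, all but that of Hist1h1a, against 7.18%. The letters GGTCCG were searched for only after the data were seen. They stood in 11 of 12 H4 promoters and in 2 of the other 49 members' promoters, against 8.25% of all promoters. A match is a description of letters, not of a bound site.

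The members lie in few places. Chromosome 13 holds 53 of the symbols, chromosome 3 holds 9, chromosome 11 holds 3 and chromosome 6 holds 1. There were 13 pairs of members in head-to-head order with starts within 1000 bases of each other. Of these, 12 pair an H2A with an H2B gene at 173 to 306 bases, and 1 pairs Hist1h2bh with the H3 gene Hist1h3f at 660. The H2B partner in the pair at 173 bases is the pseudogene Hist3h2bb-ps. In 10 pairs both genes were tested, and in 8 of these both had a negative log2 fold change. Over all members 49 of 56 tested rows (87.5%) were negative, and whether the pairs differ from that share was not tested. Most copies within a core type are close to identical. The median identity of coding sequences of equal length was 97.1% in H2A, 97.2% in H2B, 97.2% in H3 and 93.9% in H4. The lowest identities were 77.6% in H2A, 82.9% in H2B, 93.7% in H3 and 85.3% in H4. H1 had no pair of equal length to compare. In 60 of the 66 models a run of 50 bases or more is identical to another member, so single values depend on how the authors' software split such fragments. The row of Hist1h1e and Hist1h2be cannot be split, since the Hist1h2be model overlaps Hist1h1e on the same strand.

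RNA of these genes was abundant. The summed FPKM of all 67 rows made up 7.26% to 9.77% of each library's sum without small RNA genes, and 43 of the 56 tested rows lay above the 90th percentile of tested loci by mean level. At the top, 12 rows were at 1000 FPKM or more, with Hist2h2bb, a core H2B gene, the highest on this per-length scale. The other end was close to the limit of the test: Hist2h3c1 had a mean of 1.53 FPKM, just inside, and Hist2h2aa2 one of 0.520 FPKM, just outside. Of the 11 rows not tested, 3 were listed at 0 in every library (Hist1h2ad, Hist1h2bq and Hist1h2br), and the testis forms Hist1h1t and Hist1h2ba were among the others. The deposited molecule label is total RNA, and whether poly(A) RNA was selected or ribosomal RNA removed is not given in the sources used here. RNAs made without a poly(A) tail were present: Rmrp lay between 120537 and 147185 FPKM and Rpph1, the RNA of RNase P, between 59565 and 72526. FPKM divides by length, so short RNAs stand high on this scale. The ribosomal RNA precursor Rn45s was at 12874 and 7186 FPKM in the replicate 1 libraries of vehicle and 2DG, and listed at 0 in the other 4. The part of these differences in the histone values was not tested.

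Most tested histone rows lay lower with 2DG than with vehicle, by small amounts, and no single row passed the test. Of the 56, 49 (87.5%) had a negative log2 fold change, against 52.1% of all tested loci. Their median log2 fold change was -0.18, with quartiles of -0.27 and -0.11, against -0.01 for all loci. The limma fit called 0 members lower and 0 higher at an adjusted p of 0.05, while it called 1.19% of all tested loci lower and 1.53% higher, 2.72% in all. At an unadjusted p under 0.05, 10 members were lower and 1 was higher, which is 19.6% of them. The background at that p is 8.82% of loci lower and 9.07% higher, 17.9% in all. In 21 members every 2DG library lay below every vehicle library, and in 0 the reverse held; the backgrounds are 11.8% and 11.9% of loci. Among 701 other loci with a mean of 100 FPKM or more, 56.6% had a negative log2 fold change (median -0.02). Among 61 of 500 FPKM or more 44.3% had (median 0.04). In 118 of the 701 every 2DG library lay below every vehicle library, and in 69 the reverse held. For the 61 these counts were 6 and 6. Only Hist1h4f differed by 1.5-fold or more on the log2(FPKM + 1) scale. In bulk RNA, a smaller share of cells in S phase and less histone RNA per cell cannot be told apart. Under quantile normalization 40 of 56 rows were negative, with a median of -0.12.

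**Figure D1:**
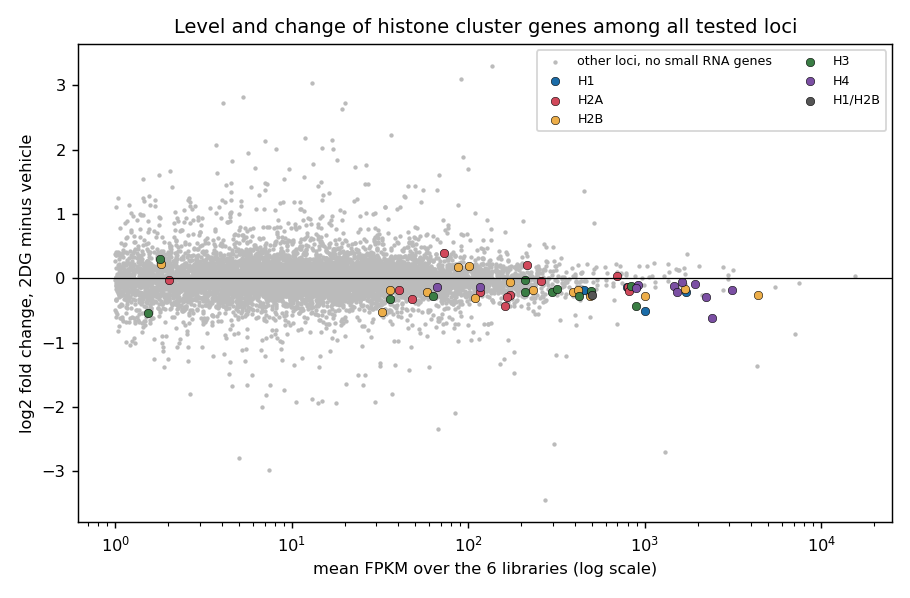
Each point is a tested locus, with its mean FPKM over the 6 libraries on a log axis and its log2 fold change (2DG minus vehicle, on log2(FPKM + 1)) on the vertical axis; coloured points are the 56 tested histone rows by type and grey points the other loci without small RNA genes. Most histone points sit at the high end of the level axis and a little below 0, with a median of -0.18.

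By type, 4 of 4 H1 rows, 10 of 13 H2A, 12 of 15 H2B, 11 of 12 H3 and 11 of 11 H4 rows had a negative log2 fold change. The medians were -0.19 for H1, -0.18 for H2A, -0.18 for H2B, -0.21 for H3 and -0.13 for H4, which set the types close together at the deposited scaling. Under quantile normalization the counts were 3 of 4 H1, 8 of 13 H2A, 12 of 15 H2B, 9 of 12 H3 and 7 of 11 H4 rows. The H2A median then moved to -0.03, apart from those of the other types, which were -0.11 for H1 and H2B, -0.13 for H3 and -0.12 for H4. The H4 count also rested on single libraries: without vehicle replicate 1 it was 6 of 11 (median -0.05), and without 2DG replicate 2 it was 8 of 11 (median -0.07). The median coefficient of variation was 3.37% for H1 rows and 14.8% for H4 rows over the vehicle libraries, and 8.86% and 11.4% over the 2DG libraries. The 2DG libraries lay wholly below vehicle for 3 of 4 H1 rows, 5 of 13 H2A, 6 of 15 H2B, 5 of 12 H3 and 1 of 11 H4 rows, beside 11.8% of all loci. The shared row of Hist1h1e and Hist1h2be was at 533, 556 and 553 FPKM in vehicle and 427, 434 and 510 in 2DG, without overlap (log2 fold change -0.26 ± 0.10 SE, limma adjusted p = 0.220).

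**Figure D2:**
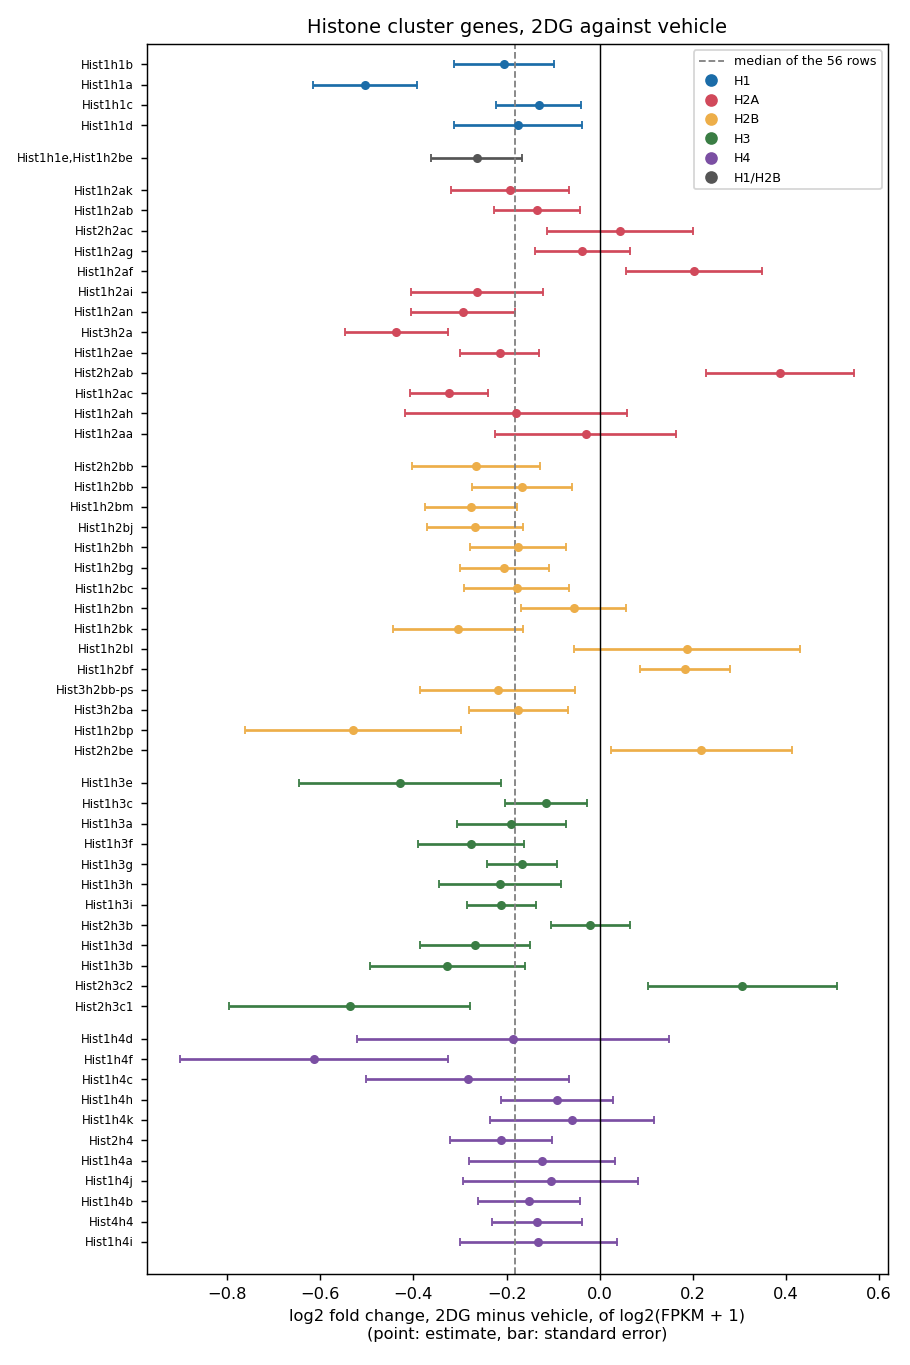
Log2 fold change, 2DG minus vehicle on log2(FPKM + 1), of each of the 56 tested histone rows, grouped by type and ordered by mean level from high to low; bars are standard errors and the dashed line is the median of -0.18. All H1 and H4 rows sit left of 0 at the deposited scaling (3 of 4 and 7 of 11 under quantile normalization), and 7 rows of H2A, H2B and H3 sit right of 0.

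Summed over a type, H1 RNA was at 4295, 4348 and 4345 FPKM in vehicle replicates 1 to 3 and at 3352, 3566 and 3933 in 2DG. The groups did not overlap, and the difference of the means was -16.4%. The H2B sum was at 10040, 10426 and 9246 FPKM in vehicle and 8205, 8177 and 8980 in 2DG, again without overlap (-14.6%). For H3 the sums were 3997, 4268 and 4007 FPKM in vehicle and 3228, 3698 and 3560 in 2DG, also apart (-14.5%). The H2A sums overlapped, at 3613, 3750 and 3749 FPKM in vehicle and 3349, 3264 and 3687 in 2DG, and their difference of -7.31% turned slightly positive under quantile normalization (log2 ratio 0.005). H4 RNA, the largest of the sums, was at 20880, 15794 and 16020 FPKM in vehicle and 13653, 13292 and 17982 in 2DG. Its groups overlapped, with 2DG replicate 3 above 2 of the vehicle libraries. The difference of the H4 means was -14.7%, a log2 ratio of -0.23, which moved to -0.09 without vehicle replicate 1, to -0.15 without 2DG replicate 2 and to -0.38 without 2DG replicate 3. Quantile normalization also made the other sums' log2 ratios smaller by over 1.5 times: H1 went from -0.26 to -0.16, H2B from -0.23 to -0.09 and H3 from -0.23 to -0.13. These sums carry no test.

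**Figure D3:**
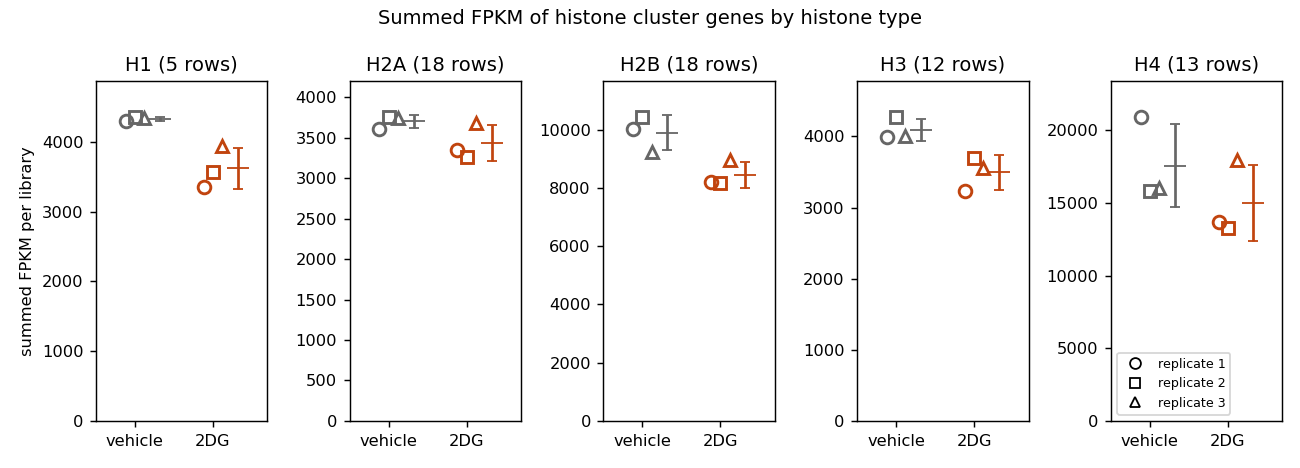
Summed FPKM of the member rows of each histone type in each library (vertical axes start at 0), with replicate 1 as circles, 2 as squares and 3 as triangles, and the mean and SD of 3 libraries beside them. The H1, H2B and H3 sums do not overlap between vehicle and 2DG, while the H2A and H4 sums do, and the H2A difference turns slightly positive under quantile normalization (log2 ratio 0.005).

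The values differed between libraries of one group. In 44 of 56 rows (78.6%) replicate 3 was the highest of the 2DG libraries, against 34.2% of all tested loci and 63.9% of the 61 other loci of 500 FPKM or more. This held for 11 of 11 H4 and 4 of 4 H1 rows. Among the vehicle libraries, replicate 1 was the highest in 9 of 11 H4 rows. Set against the vehicle library of the same number, 48 rows were lower at number 1, 53 at number 2 and 30 at number 3, with medians of -0.28, -0.22 and -0.02. For H4 these medians were -0.38, -0.17 and 0.16, and 1 of 11 rows was lower at number 3. Other abundant loci ran the same way: at 500 FPKM or more their medians were -0.10, -0.05 and 0.21, with 13 of 61 lower at number 3, and at 100 FPKM or more the median at number 3 was 0.05. Over all types 27 rows (48.2%) were lower at each number. The share was 22% of all loci, 26.5% of other loci of 100 FPKM or more and 16.4% of those of 500 FPKM or more. The correlations of deviations between same-numbered libraries were -0.05, 0.38 and -0.20 for numbers 1 to 3. With 3 libraries per group, these correlations cannot decide whether the numbers pair the libraries. Rn45s was above 0 only in the replicate 1 libraries of both groups.

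**Figure D4:**
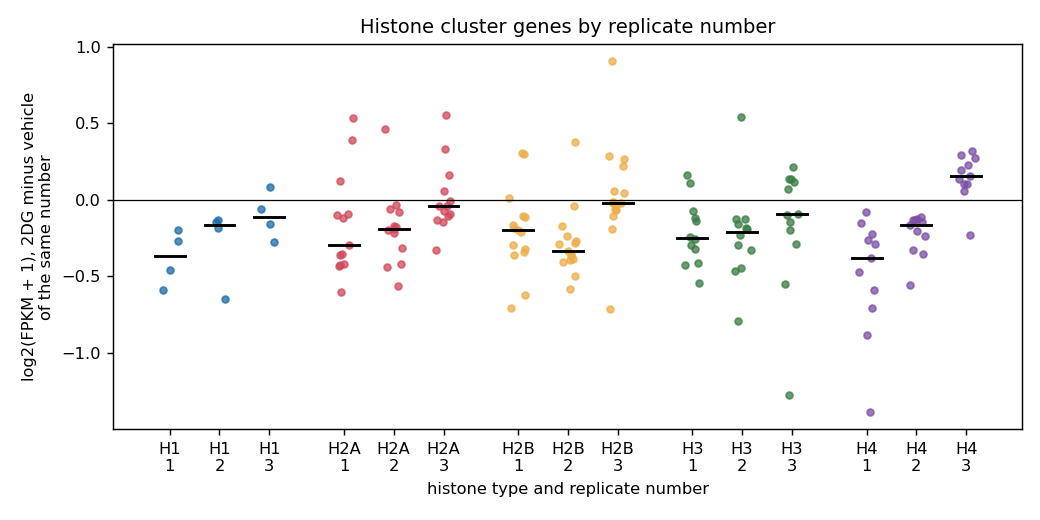
Difference in log2(FPKM + 1) between the 2DG and the vehicle library of the same replicate number for each tested histone row (points), by type; black lines are medians and the horizontal spread of points within a column has no meaning. H4 rows sit below 0 at numbers 1 and 2 (medians -0.38 and -0.17) and mostly above it at number 3 (0.16), where other loci of 500 FPKM or more also had a positive median (0.21).

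The member of smallest p was a linker histone gene. Hist1h1a (chr13:23763666-23764406, 1 exon) was at 1177, 1222 and 1145 FPKM in vehicle and at 783, 781 and 945 in 2DG. The groups lay apart, with 2DG replicate 3 nearest to vehicle. The means were 1181 ± 38.7 and 836 ± 94.0 FPKM (SD, n = 3), a log2 fold change of -0.50 ± 0.11 (SE) with a limma adjusted p of 0.0667. It passed with robust variance moderation (adjusted p = 0.0477), where 1.95% of loci were called lower, and with small RNA genes left out (0.0318), where 2.13% were. Over the other alternatives the adjusted p by limma ran from 0.0618 to 0.412. Hist1h1b, the H1 gene of highest level, was at 1812, 1784 and 1906 FPKM in vehicle and 1502, 1569 and 1704 in 2DG, also apart (log2 fold change -0.21 ± 0.11, limma adjusted p = 0.374). Hist1h1c, with its stem-loop 24 bases after the stop codon, was at 825, 824 and 848 FPKM in vehicle and 719, 751 and 812 in 2DG, apart by a small margin; its log2 fold change of -0.13 became 0.03 under quantile normalization. Hist1h1d overlapped between groups, at 480, 516 and 446 FPKM in vehicle and 348, 466 and 472 in 2DG. Its log2 fold change of -0.18 moved to -0.03 without 2DG replicate 1.

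Among the H2A genes the highest levels were those of Hist1h2ak, Hist1h2ab and Hist2h2ac. Hist1h2ak was at 822, 905 and 876 FPKM in vehicle and 644, 794 and 853 in 2DG, with overlap (log2 fold change -0.19 ± 0.13, and -0.08 without 2DG replicate 1). Hist1h2ab did not overlap, at 830, 820 and 861 FPKM in vehicle and 764, 717 and 809 in 2DG, but its log2 fold change of -0.13 became 0.02 under quantile normalization. Hist2h2ac was at 536, 783 and 759 FPKM in vehicle and 703, 673 and 738 in 2DG. Its vehicle replicate 1 was the lowest of all 6, and the log2 fold change of 0.04 became -0.13 with replicates 2 and 3 only.

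Other H2A rows, named after their values were seen, stood at the ends of the range. Hist3h2a, which lies on chromosome 11 and overlaps Trim17 on the same strand, was at 186, 197 and 176 FPKM in vehicle and 122, 133 and 159 in 2DG (log2 fold change -0.44 ± 0.11, limma adjusted p = 0.0925). Its groups lay apart, as did those of Hist1h2ac, at 55.9, 53.9 and 51.0 FPKM in vehicle and 41.5, 40.1 and 46.4 in 2DG (-0.32 ± 0.08, limma adjusted p = 0.0972). In the other direction, Hist2h2ab had the largest positive log2 fold change of the members, 0.39 ± 0.16 (limma adjusted p = 0.264), from 60.7, 51.9 and 78.2 FPKM in vehicle to 88.5, 71.8 and 87.7 in 2DG. Vehicle replicate 3 lay above 2DG replicate 2, so its groups overlapped. The rows with positive values were 7 in all: Hist2h2ab, Hist2h2ac, Hist2h2be and Hist2h3c2 of the Hist2 cluster, and Hist1h2af, Hist1h2bf and Hist1h2bl. By cluster, 41 of 44 Hist1 rows were negative (median -0.19), 4 of 8 Hist2 rows (median 0.01), 3 of 3 Hist3 rows (median -0.22) and Hist4h4 alone in its cluster (-0.13). The Hist2 count rests partly on rows near the filter: Hist2h2be, Hist2h3c1 and Hist2h3c2 had means of 1.82, 1.53 and 1.79 FPKM. Hist2h2be and Hist2h3c2 were positive and Hist2h3c1 negative, though the models of Hist2h3c1 and Hist2h3c2 share an identical run of 666 bases.

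**Figure D5:**
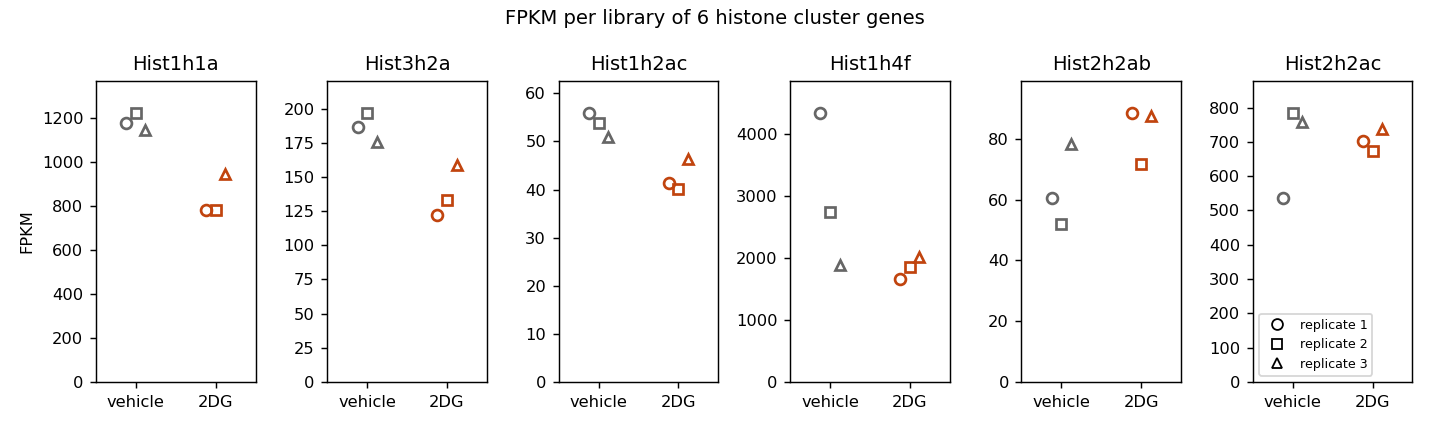
FPKM in each library (vertical axes start at 0) of Hist1h1a, Hist3h2a and Hist1h2ac, the 3 members of smallest p, of Hist1h4f and Hist2h2ab, those of the largest negative and positive log2 fold change, and of Hist2h2ac; symbols mark the replicate number. In the first 3 every 2DG library lies below every vehicle library, while the other 3 overlap and Hist2h2ac changes sign with replicates 2 and 3 only.

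In the H2B type, Hist2h2bb was at 4896, 4991 and 4391 FPKM in vehicle and 3807, 3863 and 4199 in 2DG. The groups did not overlap (log2 fold change -0.27 ± 0.14, limma adjusted p = 0.367). Its GENCODE model of 381 bases is coding only and without the stem-loop, and its longest run shared with another member, Hist2h2be, is 44 bases. Hist1h2bb came next in level, at 1738, 1883 and 1716 FPKM in vehicle and 1527, 1540 and 1690 in 2DG. It lay apart by a narrow gap (-0.17 ± 0.11). Hist1h2bm was at 1106, 1168 and 1027 FPKM in vehicle and 874, 894 and 954 in 2DG, also apart (-0.28 ± 0.10, limma adjusted p = 0.205).

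The H3 genes of highest level were Hist1h3e, Hist1h3c and Hist1h3a. Hist1h3e varied most, at 855, 1161 and 1046 FPKM in vehicle and 585, 1020 and 713 in 2DG, with overlap (log2 fold change -0.43 ± 0.22, limma adjusted p = 0.362). That value was -0.25 without 2DG replicate 1 and -0.65 without 2DG replicate 2. Hist1h3c was steadier and did not overlap, at 835, 888 and 881 FPKM in vehicle and 768, 813 and 822 in 2DG; its log2 fold change of -0.12 became 0.06 under quantile normalization. Hist1h3a overlapped, at 577, 501 and 506 FPKM in vehicle and 434, 427 and 530 in 2DG (-0.19 ± 0.12, and -0.29 without 2DG replicate 3). Of the other 9, named after their values were seen, Hist1h3i had the smallest adjusted p, at 0.193 by limma, from 233, 219 and 225 FPKM in vehicle to 189, 192 and 203 in 2DG. Hist2h3c1, the tested row of lowest level, was at 1.39 to 2.43 FPKM in vehicle and 0.416 to 1.59 in 2DG, with overlap.

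The H4 genes encode the same core protein, and Hist1h4d, Hist1h4f and Hist1h4c had the highest levels. Hist1h4d was at 4169, 2227 and 3512 FPKM in vehicle and 2554, 2015 and 4299 in 2DG. The highest value of all 6 was in 2DG, and the log2 fold change of -0.19 ± 0.33 became 0.07 with replicates 2 and 3 only. Hist1h4f (chr13:23551258-23551648) was at 4339, 2742 and 1885 FPKM in vehicle and 1661, 1860 and 2025 in 2DG. It had the largest negative log2 fold change of the members, -0.61 ± 0.29 (limma adjusted p = 0.320), which ran from -0.90 to -0.30 with single libraries left out. Vehicle replicate 1 stood above the rest, and 2DG replicate 3 lay above vehicle replicate 3. Hist1h4c was at 2724, 2340 and 2153 FPKM in vehicle and 1475, 1986 and 2596 in 2DG, with overlap; its log2 fold change of -0.28 became 0.02 with replicates 2 and 3 only. The H4 row without overlap, named after its values were seen, was Hist2h4 on chromosome 3, at 1482, 1745 and 1673 FPKM in vehicle and 1404, 1388 and 1429 in 2DG (-0.21 ± 0.11, limma adjusted p = 0.366).

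The list for histone mRNA transcription and 3′ end processing showed no call: of 21 tested, limma called 0 higher and 0 lower. The median log2 fold change was -0.04. This list also held Eri1, Upf1, Xrn1, Arrb1 and the genes Snrpb, Snrpd3, Snrpe, Snrpf and Snrpg. Of the 21, 3 had an unadjusted p under 0.05, against 17.9% of all tested loci. Those 3, named after their values were seen, were Zfp473 at -0.32 ± 0.12, Cpsf2 at 0.23 ± 0.07 and Cstf2 at 0.19 ± 0.07. Slbp, the stem-loop binding protein, was at 108, 112 and 108 FPKM in vehicle and 101, 95.0 and 107 in 2DG. The groups lay apart by a narrow gap (log2 fold change -0.11 ± 0.07, limma adjusted p = 0.494). Npat had a log2 fold change of 0.08 ± 0.10 and Casp8ap2 of -0.07 ± 0.09. The U7 snRNP proteins Lsm10 and Lsm11 were at -0.06 ± 0.10 and 0.03 ± 0.11. All 4 of these overlapped between groups and changed sign with some libraries left out or with replicates 2 and 3 only.

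Replacement variants are histones that cells make also outside S phase, mostly from polyadenylated mRNA. Of 9 tested, limma called 0 higher and 1 lower, against 1.53% and 1.19% of all tested loci, and their median was -0.02. At an unadjusted p under 0.05 there were 2, against 17.9% of all loci: H1f0 and H2afy. H2afy, named after its values were seen, was at -0.27 ± 0.09 (limma adjusted p = 0.187). The 1 called was H1f0, a linker histone of resting and differentiated cells, at 34.3, 34.3 and 34.6 FPKM in vehicle and 23.5, 27.0 and 24.7 in 2DG. Its log2 fold change was -0.45 ± 0.08 with a limma adjusted p of 0.0352, and the adjusted p ran from 0.0628 to 0.137 when any of the 6 libraries was left out. H2afz, the H2A.Z gene, had a log2 fold change of 0.26 ± 0.11 (limma adjusted p = 0.285). The H3.3 genes H3f3a and H3f3b were at 0.005 ± 0.14 and 0.11 ± 0.09, the first of these turning slightly negative with replicates 2 and 3 only. H2afx, whose transcript also holds a stem-loop, was at 563, 525 and 538 FPKM in vehicle and 522, 537 and 541 in 2DG; its log2 fold change of -0.02 became 0.04 under quantile normalization.

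Histone chaperones, which carry new histones to DNA, gave 0 calls in either direction by limma among 18 tested, with a median of -0.02. At an unadjusted p under 0.05 there were 0, against 17.9% of all tested loci. The log2 fold changes were -0.10 ± 0.10 for Asf1b, -0.13 ± 0.11 for Chaf1a and -0.10 ± 0.08 for Nasp, and the groups overlapped in each.

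Genes of G1/S and DNA replication also gave 0 calls by limma among 36 tested, with a median of -0.06. Of the 36, 24 had negative values, against 52.1% of all tested loci. At an unadjusted p under 0.05 there were 3, against 17.9% of all tested loci. These 3, named after their values were seen, all had negative values. They were Orc1, of the origin recognition complex, at -0.40 ± 0.10 (limma adjusted p = 0.0925), the DNA ligase gene Lig1 at -0.30 ± 0.08 (0.114) and the licensing factor gene Cdt1 at -0.21 ± 0.08 (0.222). Pcna, the sliding clamp, was at 313, 330 and 290 FPKM in vehicle and 295, 296 and 328 in 2DG. The groups overlapped, and the log2 fold change of -0.02 became 0.04 under quantile normalization, as did that of Mcm5, from -0.01 to 0.03. Rrm2, a subunit of the enzyme that makes deoxynucleotides, was at -0.12 ± 0.10, and Ccne1, the cyclin of S phase entry, at -0.06 ± 0.08. Genes of G2/M gave 0 calls among 20, with 0 at an unadjusted p under 0.05 and a median of -0.02, and Mki67 was at 0.004 ± 0.09, turning to -0.01 with replicates 2 and 3 only. The difference between the histone median and these medians carries no test.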

How the data were processed

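RNA of 6 libraries was measured, per the labels extracted as total RNA. The tools listed are TopHat2 2.1.0 beside Cuffdiff 2.2.1.3, Cuffnorm 2.2.1.1 and Cufflinks 2.2.1.0, and the build is mm10, per the submitters' processing notes. Which annotation, strand setting and scaling they used is not given in the sources used here. One table was deposited by the authors with an FPKM per locus and library and several symbols in some rows. The 75th percentiles of the libraries lay between 10.9 and 11.6 FPKM and the sums between 1469420 and 1958739.

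FPKM are not counts, so limma 3.58.1 in R 4.3.3 was fitted to log2(FPKM + 1) of the 10228 loci that averaged 1 FPKM or more (lmFit, eBayes with trend, group as the only term, two-sided p, Benjamini-Hochberg over all loci, threshold 0.05). The pseudocount of 1 understates changes of low genes. With 3 against 3 an exact permutation test cannot go below 0.1. On simulated data (10228 loci, 200 changed, 3 draws) 48.7% of 1.5-fold and 90.0% of 2-fold changes were recovered, and 4.83% of calls were false. The simulated noise was normal, independent between loci and of the fitted spread. Shifts shared by a library and changes under 1.5-fold were not simulated, so the share of false calls in the real data is not known from it. The shared row of Hist1h1e and Hist1h2be was left out of sums by type. Members and lists were chosen with earlier results of these data known. Genes named are, by rule, called members, all tested H1 rows, the 3 of highest mean per type, those of extreme fold change or beside the filter, a fixed set from the lists, and called list members; others are marked. Alternatives were another pseudocount (0.1), no filter, a mean of at least 5 FPKM, 3 other scalings, the replicate block, robust moderation, fewer libraries, no small RNA genes and other sums; the split of the shared row was added after seeing the data, as was the letter search for GGTCCG. Python 3.11.15 with matplotlib 3.10.9 drew the figures.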

Additional observations from a re-analysis of the deposited data

How the results depend on the processing

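No member was called under any alternative except Hist1h1a, the 1 row called lower with robust moderation and the 1 called lower with small RNA genes left out. With single libraries left out, 42 to 50 of the 56 members had a negative value, and their median log2 fold change from -0.24 to -0.14. Depth is unknown, so counting error cannot be given, and near-identical copies make single values uncertain. Counts over all loci moved more: against 122 lower and 156 higher, no filter gave 65 and 100, an equal sum over all loci 62 and 95, robust moderation 199 and 247, replicates 2 and 3 only 28 and 43, small RNA genes left out 214 and 262, and single libraries left out 25 to 69 and 52 to 98. The correlation of deviations between same-numbered libraries was -0.05, 0.38 and -0.20 for numbers 1 to 3, only number 2 correlated best with its own, and the replicate block gave 44 lower and 57 higher loci, 0 called members and a member median of -0.18. H1f0 was not called under no filter (adjusted p = 0.0506), an equal sum over all loci (0.389), the replicate block (0.0812) or replicates 2 and 3 only (0.245) by limma.

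Quantile normalization gave log2 ratios of sums of -0.16 for H1, 0.0048 for H2A, -0.094 for H2B and -0.13 for H3. It gave log2 fold changes of 0.028 for Hist1h1c, 0.023 for Hist1h2ab, 0.057 for Hist1h3c, 0.037 for H2afx, 0.041 for Pcna and 0.028 for Mcm5. An equal sum without small RNA genes gave 0.033 for H2afx, 0.033 for Pcna and 0.041 for Mcm5. Replicates 2 and 3 only gave 0.074 for Hist1h4d, 0.017 for Hist1h4c, -0.13 for Hist2h2ac, -0.0045 for Npat, 0.013 for Lsm10, -0.025 for Lsm11, 0.020 for H2afx, -0.0005 for H3f3a, 0.0099 for Pcna and -0.011 for Mki67. With single libraries left out, values spanned 0 for Hist1h4d (-0.49 to 0.053), Hist2h2ac (-0.13 to 0.14), Casp8ap2 (-0.10 to 0.0084), Lsm10 (-0.13 to 0.0046), Lsm11 (-0.050 to 0.10), H2afx (-0.044 to 0.0055), H3f3a (-0.090 to 0.16), Pcna (-0.073 to 0.021), Mcm5 (-0.060 to 0.052) and Mki67 (-0.045 to 0.077). The cause of these changes was not tested.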
